A study of Homo sapiens with 6 samples.

Results

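The genes described here are 10 genes from families that regulate mitogen-activated protein kinase (MAPK) signalling. They are the dual-specificity phosphatase genes DUSP1, DUSP2, DUSP4, DUSP5, DUSP6, DUSP10 and DUSP22, the Sprouty genes SPRY1 and SPRY2, and SPRED2. They were chosen by name, with earlier results of these data known, and each name belonged to 1 of the 63677 gene IDs of the table. Their 51 transcripts were summed per gene ID. RNA came from KMS27, an established human line of malignant plasma cells (multiple myeloma). One group of 3 libraries was labelled HA-TAZ: KMS27 cells that overexpressed TAZ, the transcriptional coactivator encoded by WWTR1, with an HA peptide tag. The other group of 3 libraries was labelled wild type KMS27, and they are named control a, b and c here because their columns, named scr in the table, match no sample label. The titles of the wild type samples also contain HA, and the treatment label does not say whether those cells carried a construct. Neither the vector, the number of clones nor the time of expression is given in the sources used here. No label says that the libraries of a group came from separate cultures, so p-values measure only the spread between libraries, which may be technical.

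MAPK cascades pass a signal from RAS or from stress sensors through tiers of kinases to ERK, JNK or p38. Many dual-specificity phosphatases remove both activating phosphates from these kinases. Many of their genes are themselves transcribed in response to MAPK activity, which closes a negative feedback loop. Sprouty and SPRED proteins act further upstream, between receptors, RAS and RAF. In myeloma the RAS and ERK pathway is often activated by mutation.

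The values are TPM, an abundance per transcript length that sums to 1000000 in each library, so that each value is a share of its library and holds no read depth. Levels below are scaled TPM, which is TPM divided by a factor per library that brings the typical gene to the same level (0.866 to 0.967 for HA-TAZ and 1.06 to 1.21 for control libraries). Fold changes are log2(scaled TPM + 1) differences, HA-TAZ minus control, fitted with limma over the 22651 genes whose mean TPM reached 1. A gene is called where its Benjamini-Hochberg adjusted p-value, taken over all of these genes, is under 0.05. The median log2 fold change of all tested genes was −0.03 with scaled TPM and −0.27 with TPM as deposited, so a direction is also given for TPM as deposited where it differs. WWTR1 averaged 297 ± 7.42 TPM over the HA-TAZ libraries and 2.20 ± 0.497 over the controls (SD, n = 3 each). The 8 plasma cell markers, among them SDC1, TNFRSF17 and IRF4, summed to 618 to 648 scaled TPM with HA-TAZ and 614 to 639 scaled TPM without, ranges that overlapped. In TPM as deposited these sums were 550.2 to 599 and 653 to 743. Of these 8, CD38 was called lower and SLAMF7 higher. The 8 markers of other cells, from CD3E to HBB, summed to 4.51 to 6.13 scaled TPM with HA-TAZ and 4.35 to 6.13 scaled TPM without. COL1A1 and PECAM1 passed the filter among them, uncalled, and LYZ and MS4A1 were each listed at 0 in 1 control library. The sums hide markers below the filter whose scaled values did not overlap between the groups. MS4A1 was higher with HA-TAZ (mean 0.125 against 0.00917 scaled TPM). CD3E (0.125 against 0.355) and EPCAM (0.162 against 0.232) were lower, and CD14, LYZ and HBB overlapped. In bulk RNA fewer cells with a transcript and less of it per cell cannot be told apart. RN7SL1 and RN7SL2, RNAs of the signal recognition particle, took 14.1 to 15.6% of TPM in HA-TAZ and 9.27 to 12.5% in control libraries, and the part of this difference in the results below was not tested.

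Of the 10 genes, 9 passed the filter on level and 3 were called, each higher in HA-TAZ libraries: DUSP10, DUSP2 and DUSP5. None was called lower. With 1 library left out, 0 members were called without HA-TAZ 2, 1 without HA-TAZ 1 or control b, and 2 or 3 without any other. Over all tested genes 7.29% were called, and 4.67% were called higher. DUSP10, DUSP2 and DUSP5 were also called higher with TPM as deposited and with protein-coding genes only, so their direction did not depend on the scaling. DUSP1 had a smaller positive change that missed the threshold. DUSP6, DUSP22, SPRY1, SPRY2 and SPRED2 were not called, and with TPM as deposited all 5 had negative changes. Without regard to the test, scaled values of the groups did not overlap for 6 of the 9 tested members, against 38.5% of all tested genes. Before adjustment, 5 members and 6959 genes had a limma p-value under 0.05.

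**Figure D1:**
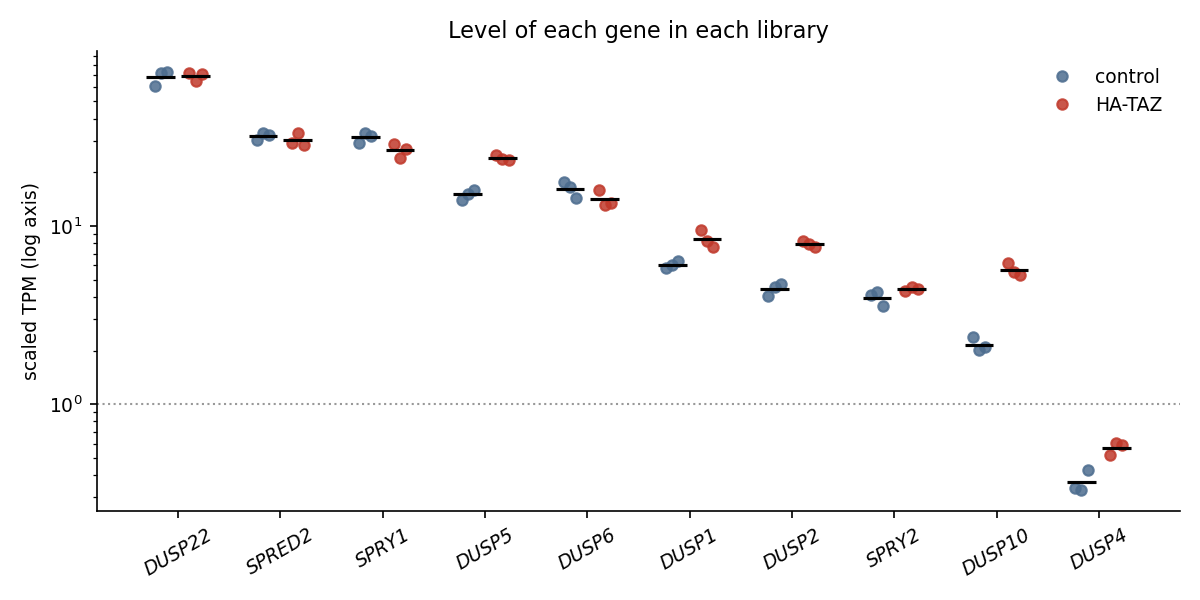
Scaled TPM of each of the 10 genes (log axis) in the 3 control and 3 HA-TAZ libraries. Points are libraries, bars are group means and the dotted line is 1 scaled TPM. The points of DUSP5, DUSP2 and DUSP10 separate by the widest margins among genes above that line, and DUSP4 lies below it in all 6 libraries.

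DUSP10 (ENSG00000143507) encodes MKP-5, a phosphatase that acts on JNK and p38 rather than on ERK. It was at 6.20, 5.50 and 5.28 scaled TPM in the HA-TAZ libraries in the order 1, 2, 3, and at 2.37, 2.02 and 2.08 scaled TPM in controls a, b and c, the order used throughout. The lowest HA-TAZ library was above every control library by more than the whole spread of either group. The ratio of the group means was 2.62 in scaled TPM and 2.11 in TPM as deposited. On the log2 scale the change was 1.07 (SE 0.10, 95% interval 0.83 to 1.31), with a limma adjusted p of 0.00910. The added pseudocount makes this log2 value smaller than the log2 of the ratio of means. DUSP10 was called in 5 of the 6 fits that each left out a library, with the exception of the fit without HA-TAZ 2 (limma, adjusted p = 0.0511), where the log2 fold change was 1.10. The authors' deposited table implies 515 estimated counts for DUSP10 in a typical library, a counting error of 4.41%.

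DUSP2 (ENSG00000158050), also known as PAC-1, is a nuclear phosphatase best known from lymphocytes, where it is an immediate early gene. Its levels were 8.20, 7.90 and 7.60 scaled TPM in the HA-TAZ libraries and 4.03, 4.55 and 4.69 scaled TPM in the controls. All 3 HA-TAZ libraries lay above all 3 controls, as they did in TPM as deposited. The log2 fold change was 0.72 (SE 0.08, 95% interval 0.52 to 0.91, limma adjusted p = 0.0139) with scaled TPM and 0.46 with TPM as deposited (limma adjusted p = 0.0337). The call was lost without HA-TAZ 1 (limma adjusted p = 0.0689), without HA-TAZ 2 (0.0678), without HA-TAZ 3 (0.0545) and without control b (0.0579), while the log2 fold change stayed between 0.66 and 0.75.

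DUSP5 (ENSG00000138166) is a nuclear phosphatase specific for ERK, which it also holds in the nucleus. It was at 24.8, 23.6 and 23.5 scaled TPM in HA-TAZ libraries and at 13.9, 15.2 and 15.9 scaled TPM in controls. It was the most abundant of the called members and had the smallest relative spread in HA-TAZ libraries among them. DUSP5 had a log2 fold change of 0.64 (SE 0.06, 95% interval 0.49 to 0.80, limma adjusted p = 0.0112). With TPM as deposited it was 0.36 (limma adjusted p = 0.0333). The call was lost without HA-TAZ 1 (limma adjusted p = 0.0604), without HA-TAZ 2 (0.0562) and without control b (0.0534), at log2 fold changes of 0.63, 0.66 and 0.65.

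DUSP1 (ENSG00000120129) encodes MKP-1, a nuclear phosphatase of p38, JNK and ERK that is induced early by stress and growth factors. Its levels were 9.52, 8.27 and 7.65 scaled TPM in HA-TAZ libraries and 5.81, 6.06 and 6.34 scaled TPM in controls. The groups did not overlap in scaled TPM, but in TPM as deposited they did, at 6.81 to 8.24 and 6.61 to 7.02 TPM. The log2 fold change of 0.42 (SE 0.09, 95% interval 0.19 to 0.65) had an adjusted p of 0.0541 (limma). DUSP1 passed the threshold with protein-coding genes only (log2 fold change 0.35, limma adjusted p = 0.0199), and had a log2 fold change of 0.15 with TPM as deposited (limma adjusted p = 0.258).

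DUSP4 (ENSG00000120875) encodes MKP-2, a nuclear phosphatase close to DUSP1 in sequence. It stayed below the filter, at 0.518, 0.607 and 0.589 scaled TPM in HA-TAZ libraries and 0.340, 0.331 and 0.430 scaled TPM in controls. The scaled values of the groups were separate, with p = 0.1 by a two-sided exact permutation test, which cannot give less with 3 libraries against 3. In the limma fit with no filter on level its log2 fold change was 0.20 (adjusted p = 0.170). With TPM as deposited the groups overlapped.

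DUSP6 (ENSG00000139318) encodes MKP-3, the cytoplasmic phosphatase specific for ERK and a commonly used readout of ERK activity. Its levels were 16.0, 13.1 and 13.5 scaled TPM in HA-TAZ libraries and 17.7, 16.5 and 14.4 scaled TPM in controls. The ranges overlapped, since HA-TAZ 1 lay above control c. DUSP6 had a log2 fold change of −0.18 (95% interval −0.44 to 0.08, limma adjusted p = 0.307). With TPM as deposited all 3 HA-TAZ libraries were lower, at 12.04 to 13.8 against 15.2 to 21.4 TPM (log2 fold change −0.46, limma adjusted p = 0.0611). In GENCODE release 29 an exon of AC024909.2 lies over DUSP6 on the opposite strand. Use of the strand in the quantification is not given in the sources used here, so values of DUSP6 may include reads of that gene.

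DUSP22 (ENSG00000112679) encodes a small atypical phosphatase known for its action on the JNK pathway and in lymphocyte signalling. It was the most abundant of the 10 genes, at 71.8, 65.2 and 71.5 scaled TPM in HA-TAZ libraries and 61.2, 71.9 and 73.3 scaled TPM in controls. The HA-TAZ values lay within the control range. The log2 fold change was 0.02 with a 95% interval of −0.19 to 0.22 (limma adjusted p = 0.909). The direction turned with TPM as deposited, where DUSP22 was called lower (log2 fold change −0.28, limma adjusted p = 0.0337), a value next to the median of all genes on that scale (−0.27).

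SPRY1 (ENSG00000164056) and SPRY2 (ENSG00000136158) encode Sprouty proteins, which restrain RAS and ERK signalling downstream of growth factor receptors. SPRY1 was at 28.9, 24.1 and 26.8 scaled TPM in HA-TAZ libraries and 29.3, 33.2 and 31.9 scaled TPM in controls. The groups did not overlap, but HA-TAZ 1 and control a were close. The log2 fold change was −0.24 (95% interval −0.44 to −0.03, limma adjusted p = 0.124). SPRY1 was called lower with TPM as deposited (−0.53, limma adjusted p = 0.0216) and with protein-coding genes only (−0.31, limma adjusted p = 0.0186), so its direction held under the scalings and its call did not. SPRY2 was at 4.29, 4.53 and 4.43 scaled TPM in HA-TAZ and 4.10, 4.24 and 3.53 scaled TPM in control libraries. Its log2 fold change was 0.13 (95% interval −0.09 to 0.35, limma adjusted p = 0.368) and turned to −0.11 with TPM as deposited (limma adjusted p = 0.4998).

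SPRED2 (ENSG00000198369) encodes a Sprouty-related protein that recruits neurofibromin to inactivate RAS. It was at 29.05, 33.2 and 28.5 scaled TPM in HA-TAZ and 30.4, 33.2 and 32.1 scaled TPM in control libraries. The groups overlapped, and HA-TAZ 2 was the highest of all. The log2 fold change was −0.08 (95% interval −0.26 to 0.11, limma adjusted p = 0.516).

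**Figure D2:**
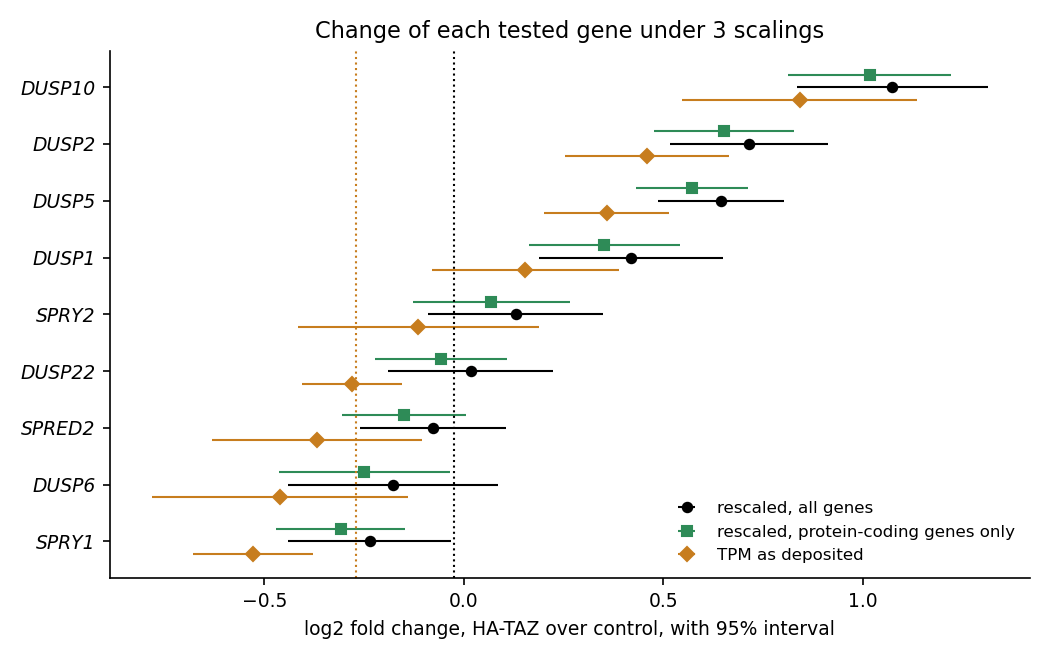
Log2 fold change (HA-TAZ over control, horizontal axis) of the 9 tested genes with limma 95% intervals under 3 scalings. The dotted lines are the median of all tested genes with scaled TPM (black, −0.03) and with TPM as deposited (orange, −0.27). The intervals of DUSP10, DUSP2 and DUSP5 lie above 0 under each scaling, and those of SPRY1 below 0.

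Ratios of 2 members within a library do not depend on any scaling factor. The following ratios were chosen after the levels were seen and are given without a test. The ratio of DUSP5 to DUSP6, the nuclear and the cytoplasmic phosphatase of ERK, was 1.55, 1.81 and 1.74 in HA-TAZ libraries and 0.788, 0.921 and 1.11 in controls. DUSP10 to DUSP6 was 0.388 to 0.421 in HA-TAZ and 0.123 to 0.145 in control libraries. DUSP5 to SPRY1 was 0.860 to 0.980 and 0.456 to 0.4997. For each of these pairs every HA-TAZ library was above every control. As the pairs set members with positive changes against members with negative ones, this separation describes the choice.

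The order of the levels differed between the groups. In control libraries DUSP22 was highest, SPRED2 and SPRY1 came next with overlapping ranges, then DUSP6 and DUSP5 with overlapping ranges. DUSP1 followed, then DUSP2 and SPRY2 with overlapping ranges, then DUSP10 and DUSP4. In HA-TAZ libraries the range of DUSP5 overlapped with that of SPRY1 (24.1 to 28.9 scaled TPM) and lay above that of DUSP6. DUSP2 overlapped with DUSP1 there, and DUSP10 lay above SPRY2.

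Sequence before the start sites was examined for 8 of the members, which have 13 windows of 250 bases in the RefSeq promoter table (GRCh38.p14). The 5 motifs searched on both strands were GGAATG (TEAD), TGACGTCA (cyclic AMP response element, CRE), TGANTCA (AP-1), CACGTG (E-box) and the CArG box bound by serum response factor. None of them contains another. DUSP4 and DUSP5 were not searched, and neither window of DUSP10 held a match. Only 2 windows held a match, that of DUSP2 and that of DUSP1, which missed the threshold, and both are printed. Each reads 5′ to 3′ on the strand of the gene and ends at the base before the annotated start, with matches in capitals. The DUSP2 window, chr2:96145441-96145690 on the minus strand, overlaps an exon of AC012307.1 on the same strand in GENCODE release 29. The DUSP1 window, chr5:172771196-172771445 on the minus strand, overlaps no annotated exon.
DUSP2: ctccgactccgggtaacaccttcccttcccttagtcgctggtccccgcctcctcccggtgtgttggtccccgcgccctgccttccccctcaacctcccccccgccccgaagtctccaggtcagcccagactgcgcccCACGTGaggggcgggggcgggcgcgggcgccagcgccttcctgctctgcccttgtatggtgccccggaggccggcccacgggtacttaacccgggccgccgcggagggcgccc
DUSP1: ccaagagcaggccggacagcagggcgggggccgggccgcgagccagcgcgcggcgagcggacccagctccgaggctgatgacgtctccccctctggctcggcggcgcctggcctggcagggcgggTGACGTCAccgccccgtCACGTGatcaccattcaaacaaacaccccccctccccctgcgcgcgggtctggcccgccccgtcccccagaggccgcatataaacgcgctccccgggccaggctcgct
Counting the base before the start as −1, the E-box of DUSP2 begins at −113. In DUSP1 the CRE begins at −125 and the E-box at −108. Of all 35116 RefSeq windows of this length, 6.34% held the E-box, 1.65% the CRE, 6.57% the AP-1 motif, 11.9% the TEAD motif and 1.16% the CArG box. A match describes letters only.

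At transcript level, 33 of the 51 transcripts of the members passed a mean TPM of 1, and 2 were called, both higher, against 0.564% of the 57448 transcripts tested. They were the main protein-coding transcripts of DUSP10 and DUSP5. ENST00000366899.3 held 74.8% of DUSP10 and was at 3.98, 3.86 and 3.59 TPM in HA-TAZ libraries and 2.03, 1.74 and 1.73 TPM in controls (log2 fold change 0.98, limma adjusted p = 0.0222). ENST00000369583.3 held 79.5% of DUSP5 and was at 17.2, 18.9 and 16.5 TPM against 13.03, 13.2 and 13.0 TPM (log2 fold change 0.67, limma adjusted p = 0.0409). The main DUSP2 transcript, ENST00000288943.4 with 82.0% of the gene, had a log2 fold change of 0.64 and missed the threshold (limma adjusted p = 0.0507). A DUSP2 transcript annotated as a retained intron, ENST00000488952.1, had a log2 fold change of 0.55 (limma adjusted p = 0.156). Neither call of a member transcript held in the fits that left out a library, and 0 member transcripts were called with TPM as deposited.

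Transcript shares within a gene also do not depend on the scaling. The 9 members with several transcripts hold 22 transcripts with at least 10% of their gene, and 9 of these had shares that did not overlap between the groups, 6 higher and 3 lower in HA-TAZ libraries. Leaving out DUSP4, which is below the filter, this was 9 of 21, against 23.5% of the 36200 such transcripts of all tested genes. Shares of 1 gene add up to 100%, so they do not vary independently. The shares of DUSP2 and DUSP5 transcripts overlapped between the groups. The main SPRY2 transcript, ENST00000377104.3, held 68.2 ± 0.805% of the gene in HA-TAZ and 79.4 ± 4.67% in control libraries (SD, n = 3 each), while ENST00000540649.1 held 22.8 ± 0.631% and 12.5 ± 2.71%. In SPRED2, ENST00000440972.1 held 19.4 ± 1.73% in HA-TAZ and 11.6 ± 3.51% in control libraries, and the main transcript ENST00000356388.4 held 63.9 ± 3.51% and 63.95 ± 5.81% (SD, n = 3 each). In DUSP22, with 16 transcripts, ENST00000344450.5 held 27.0 ± 1.18% and 21.7 ± 1.73% and ENST00000419235.2 held 25.5 ± 0.991% and 22.8 ± 1.39% (SD, n = 3 each). The exact permutation p of each share without overlap is 0.1, the smallest possible here, so none can pass a threshold of 0.05. In DUSP10, whose main transcript kept overlapping shares, ENST00000544095.1 held 10.7 ± 1.87% in HA-TAZ and 13.9 ± 1.91% in control libraries (SD, n = 3 each). In DUSP6, the main transcript ENST00000308385.6 held 32.4 ± 3.81% and 32.4 ± 1.90% (SD, n = 3 each). Another DUSP6 transcript, ENST00000279488.7, held 15.1 ± 0.678% and 10.9 ± 2.41%, and in SPRY1 ENST00000515726.1 held 22.9 ± 1.45% and 18.0 ± 0.835% (SD, n = 3 each). ENST00000508849.1, the most abundant SPRY1 transcript by the mean over all 6 libraries, held 21.5 ± 2.16% and 25.4 ± 1.54% (SD, n = 3 each). The transcript test reached 1 of 3 SPRY2, 5 of 8 SPRED2 and 11 of 16 DUSP22 transcripts and called 0 of them (limma). ENST00000540649.1 of SPRY2 and ENST00000544095.1 of DUSP10 were below its filter, and neither has an entry in GENCODE release 29. The authors' deposited table implies 49.8 estimated counts in a typical library for ENST00000540649.1 (sleuth Wald test, q = 0.0967).

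**Figure D3:**
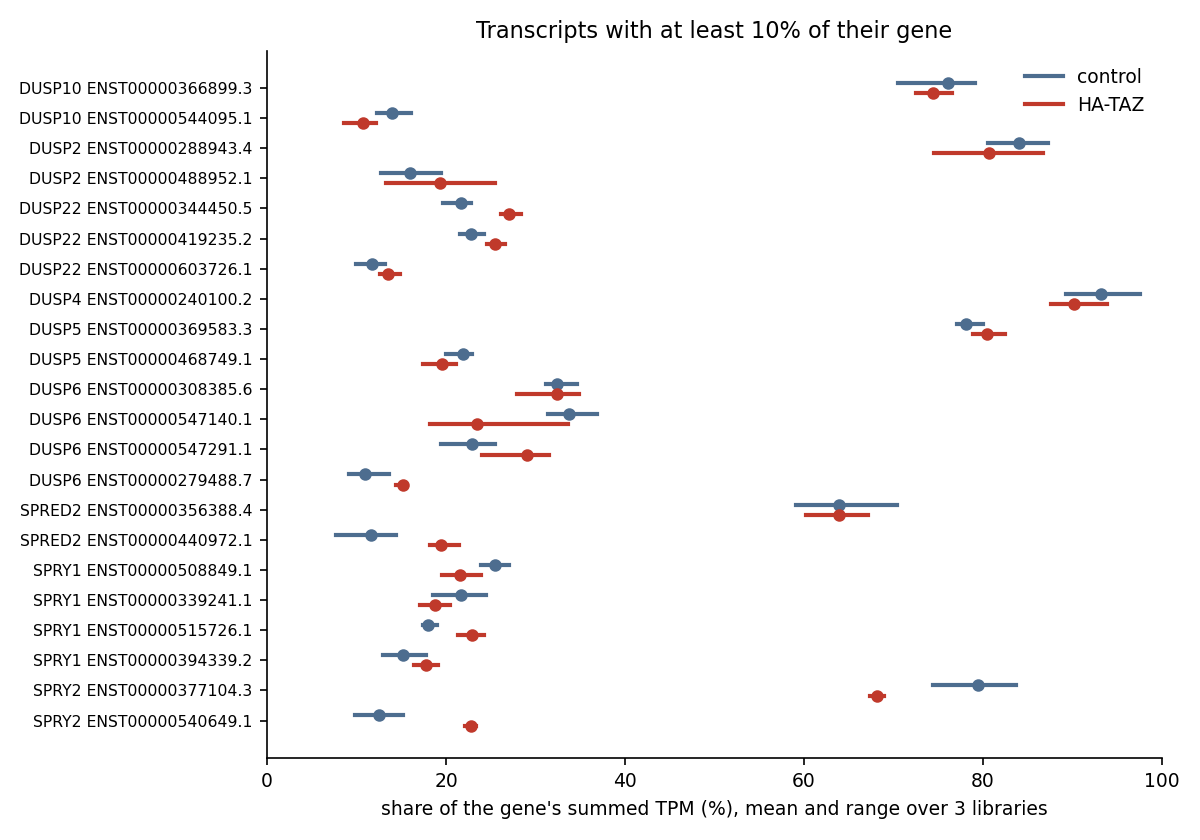
Share of a gene's summed TPM (percent, horizontal axis) held by each transcript with at least 10% of its gene, as the mean (point) and range (line) over 3 libraries of a group. DUSP1 has 1 transcript and is left out. Among transcripts whose ranges do not overlap, the SPRY2 pair has the widest gap between means, with the main transcript lower and ENST00000540649.1 higher in HA-TAZ libraries. ENST00000540649.1 is below the filter on level and has no entry in GENCODE release 29.

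The authors' deposited table, a sleuth Wald test per transcript, has statistics for 47 transcripts of the members. By the q-values of the authors' deposited table, 6 of these were under 0.05, all with positive effects, against 5.68% of its 109487 transcripts with statistics. They belong to DUSP1, DUSP2, DUSP4, DUSP5 and, with 2 transcripts, DUSP10. Effects there are natural logs and lie by a median of 0.225 above those of the TPM ratios. The authors' deposited table lists the main DUSP10 transcript ENST00000366899.3 at 0.958 (SE 0.103, q = 1.82e-17) and the main DUSP5 transcript ENST00000369583.3 at 0.517 (SE 0.0629, q = 1.41e-13). DUSP1 (ENST00000239223.3) stands at 0.347 (SE 0.0809, q = 0.00110) and DUSP4 (ENST00000240100.2) at 0.434 (SE 0.137, q = 0.0323) in the authors' deposited table. No transcript of DUSP6, DUSP22, SPRY1, SPRY2 or SPRED2 was under that threshold in the authors' deposited table. The authors' test and the limma fit differ in their model of the spread and in the features tested. The estimated counts implied by the authors' deposited table run from 158 for DUSP4 to 5769 for DUSP22, which corresponds to counting errors of 7.97% and 1.32% in a typical library.

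The rest of the pathway was read from 4 lists, written with earlier results of these data known. SPRY4 is on the first and the last of them. Over all genes tested, 1057 of 22651 were called higher and 595 lower. With TPM as deposited these counts were 261 and 3068, and with protein-coding genes only 1424 and 1322 of 11666. Of 13 tested dual-specificity phosphatase, Sprouty and SPRED genes outside the members, 2 were called higher and 0 lower, and the median log2 fold change was 0.12. In TPM as deposited 0 were called and the median was −0.14, and with protein-coding genes only 2 of 12 were called higher and 0 lower. DUSP8, a phosphatase of JNK and p38, was at 7.18 ± 0.526 in HA-TAZ and 4.47 ± 0.403 scaled TPM in control libraries (SD, n = 3 each; log2 fold change 0.58, limma adjusted p = 0.0314). DUSP3, a small atypical phosphatase of ERK and JNK, was at 9.63 ± 0.591 and 6.73 ± 0.392 scaled TPM (SD, n = 3 each; log2 fold change 0.46, limma adjusted p = 0.0335). Both stayed positive with TPM as deposited, at 0.33 and 0.19, without a call, and both lost the call whichever library was left out. DUSP12 and DUSP11, the most abundant of this list, had log2 fold changes of 0.22 and −0.04, and that of DUSP12 turned to −0.07 with TPM as deposited. DUSP9 was at 0 to 0.00926 TPM per library, DUSP19 at 0.253 to 0.431, DUSP26 at 0.259 to 0.508 and SPRY3 at 0.244 to 0.408 TPM, all below the filter.

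Among 26 tested genes of the RAS to ERK cascade, 1 was called higher and 0 lower, with a median log2 fold change of −0.05. With protein-coding genes only 2 were called higher and 4 lower, against 1424 and 1322 of all 11666 genes tested in that setting. The called gene was GRB2, the adaptor that links receptors to SOS, at 73.1 ± 1.43 in HA-TAZ and 57.9 ± 3.38 scaled TPM in control libraries (SD, n = 3 each; log2 fold change 0.33, limma adjusted p = 0.0321). It had a log2 fold change of 0.04 with TPM as deposited and lost its call whichever library was left out (limma adjusted p from 0.0591 to 0.118). PTPN11, which encodes the phosphatase SHP2, had a log2 fold change of 0.06 (limma adjusted p = 0.537) that turned to −0.24 with TPM as deposited. With TPM as deposited 0 genes of this list were called higher and 2 lower, with a median of −0.34.

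Of 17 tested genes of the JNK and p38 cascades, 3 were called higher and 1 lower, with a median of 0.10. JUN, the AP-1 subunit phosphorylated by JNK, averaged 17.5 ± 1.05 scaled TPM in HA-TAZ libraries against 8.01 ± 0.652 in controls (SD, n = 3 each; log2 fold change 1.04, limma adjusted p = 0.00610). MAPKAPK2, a kinase activated by p38, was at 37.7 ± 0.556 and 21.98 ± 0.743 scaled TPM (SD, n = 3 each; log2 fold change 0.75, limma adjusted p = 0.00268). Both were called with TPM as deposited and in each of the 6 fits that left out a library. MAPKAPK2 has 2 gene IDs with the same values, and 1 of them is counted here. MAP2K3, which activates p38, had a log2 fold change of 0.22 that turned to −0.06 with TPM as deposited, and MAP3K4 had one of −0.24 (limma adjusted p = 0.0449 and 0.0416). Both lost the call whichever library was left out. MAPK13, the highest of this list by the mean over all 6 libraries when 1 gene ID of MAPKAPK2 is counted, had a log2 fold change of 0.12 and of −0.17 with TPM as deposited. With TPM as deposited the list had 2 genes called higher and 4 lower, and with protein-coding genes only 2 and 3.

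Of 10 tested target genes of ERK outside the members, 3 were called higher and 0 lower, with a median of 0.12. In TPM as deposited 1 was called higher and 1 lower, with a median of −0.17, and with protein-coding genes only 3 higher and 2 lower. The 3 genes called higher were the immediate early genes IER2, FOS and EGR1. IER2 was at 3.82 ± 0.525 in HA-TAZ and 1.11 ± 0.400 scaled TPM in control libraries (SD, n = 3 each; log2 fold change 1.20, limma adjusted p = 0.0250), FOS at 8.73 ± 1.34 and 4.51 ± 0.631 (0.82, 0.0350) and EGR1 at 1.82 ± 0.162 and 0.892 ± 0.0559 (0.58, 0.0369). All 3 stayed positive with TPM as deposited, at 1.01, 0.56 and 0.41, where IER2 was called and FOS and EGR1 were not (limma adjusted p = 0.0678 and 0.0626). FOS and EGR1 lost the call whichever library was left out, and IER2 was called in 1 of the 6 fits. MYC, the most abundant gene of this list, had a log2 fold change of 0.18 (limma adjusted p = 0.0859) that turned to −0.12 with TPM as deposited. ETV1, an ETS factor and the next in level, had one of −0.34 (limma adjusted p = 0.0895). ETV1 was called lower with TPM as deposited (−0.64, limma adjusted p = 0.0491) and with protein-coding genes only (−0.42, limma adjusted p = 0.0165). ETV5, a related ETS factor named after its values were seen, was called lower with protein-coding genes only (−0.46, limma adjusted p = 0.0260). IER3 was spread over 6 gene IDs that were each below the filter, and summed TPM was 1.70 to 1.89 for HA-TAZ and 0.618 to 0.819 for controls.

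**Figure D4:**
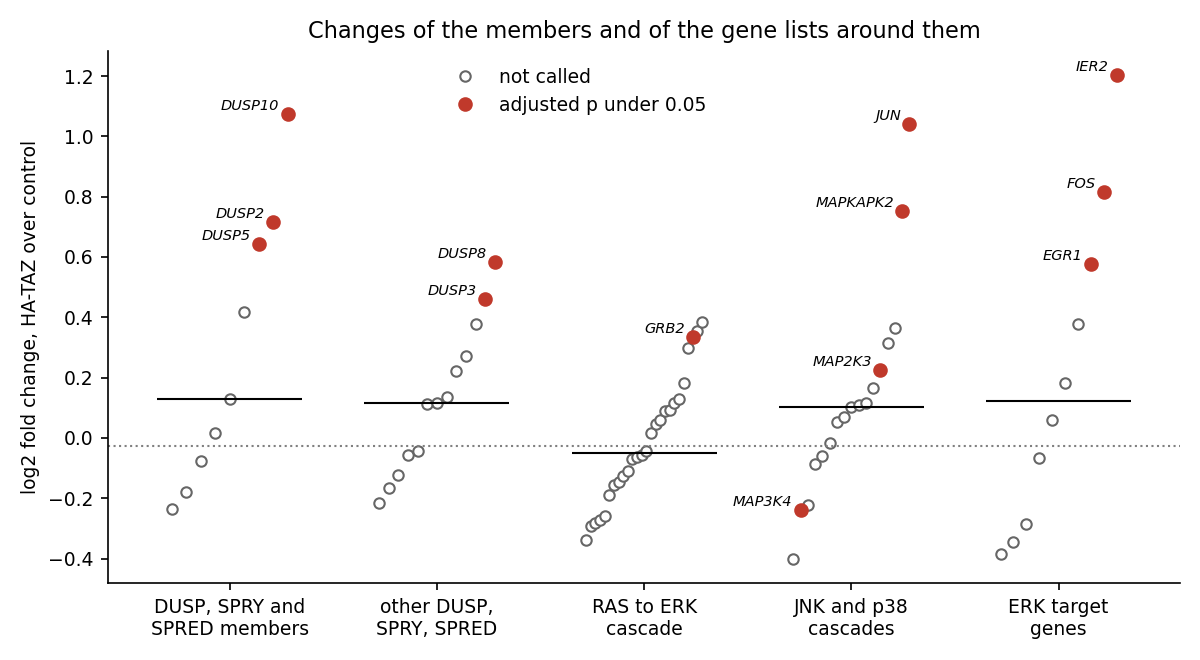
Log2 fold change (HA-TAZ over control, vertical axis) of each tested gene among the members and in the 4 pathway lists. Filled points have an adjusted p under 0.05, bars are list medians and the dotted line is the median of all tested genes (−0.03). Called points lie mostly above that line, and GRB2 is the only one in the RAS to ERK cascade.

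The genes closest to DUSP10 over the 6 libraries, by the root mean square difference of centred log2 values, were FNBP1 (0.0682), TNFRSF9 (0.0738) and TNFAIP3 (0.0816). Their log2 fold changes were 1.09, 1.11 and 1.09. The pseudocount of 1 narrows changes at low levels, so like values do not mean like ratios. FNBP1 was at 23.0 TPM on average in HA-TAZ libraries and 12.8 TPM in controls, and TNFRSF9 at 2.38 and 0.765 TPM. TNFAIP3, which encodes the A20 inhibitor of NF-kB signalling, was at 37.2 TPM on average in HA-TAZ libraries and 20.9 TPM in controls. The genes closest to DUSP22, the most abundant member, were CAPN10-AS1 (0.0217), AC016747.3 (0.0249) and HYKK (0.0281), whose log2 fold changes were −0.02, −0.03 and 0.02. With 6 libraries in 2 groups, this likeness mostly restates the difference between the groups.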

How the data were processed

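The authors deposited TPM per transcript for 215170 transcripts in 6 libraries, and each column sums to 1000000. They also deposited a table of their own Wald test per transcript with p-values and q-values, and with an effect and a mean of scaled estimated counts on the natural log scale, per the file headers. The submitters' processing notes name kallisto 0.46.0, sleuth 0.30.0 and GRCh37; the annotation release is not given in the sources used here. The depth of a single library is unknown, and the authors' means imply 52795484 estimated counts for a typical one.

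Columns naming TAZ and a number were matched to the sample titles, and the other 3 were taken as wild type by elimination. TPM was summed per gene ID and divided by median-of-ratios factors over 21512 genes above 0 in every library whose mean TPM reached 1, the level also needed to be tested. Tests used limma 3.58.1 with an intensity trend in R 4.3.3, a pseudocount of 1 and Benjamini-Hochberg adjustment, and the same on transcripts. The procedure was tested on simulated data in which only genes with a control mean above 5 TPM were changed. DUSP10 and DUSP2, with control means of 2.43 and 4.93 TPM, lie below that level. Single values had an exact permutation test. The rule for names took all members, from each list the called genes (at most 6) and the 2 with the highest mean TPM, and transcripts with at least 10% of a member, of which the text gives the main ones and those without overlap. Members and lists were chosen with earlier results of these data known. GENCODE release 29 gave gene and transcript types and exons, on another build than the files. Alternatives changed the scaling, pseudocount, filter, trend or libraries. Sums and figures used Python 3.11.15 with pandas 2.3.3, numpy 2.4.6 and matplotlib 3.10.9.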

Additional observations from a re-analysis of the deposited data

How the results depend on the processing

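DUSP2 and DUSP5 were positive and called under each alternative that kept all 6 libraries, as was DUSP10 except at a mean TPM of at least 5, which it did not reach. Leaving out 1 library gave log2 fold changes of 1.03 to 1.13, 0.66 to 0.75 and 0.59 to 0.68 for DUSP10, DUSP2 and DUSP5, and 0 (without HA-TAZ 2) to 3 called members. Without HA-TAZ 1 or control b 1 member was called. With TPM as deposited 5 of the 9 tested members were called, 3 higher and 2 lower, against 3329 of all 22651 tested genes. With protein-coding genes only 5 of 9 were called, 4 higher and 1 lower, against 2746 of 11666. DUSP1 was called with protein-coding genes only (0.35), at a mean TPM of at least 5 (0.42) and with factors over all genes above 0 (0.45), a setting added after the data were seen. SPRY1 was called lower with TPM as deposited (−0.53) and protein-coding genes only (−0.31). DUSP22 changed sign in those settings (−0.28 and −0.057) and ranged from −0.067 to 0.067 with a library left out; SPRY2 changed sign with TPM as deposited (−0.11). The cause was not tested.

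The 1652 called genes (64.0% higher) became 3329 with TPM as deposited (7.84%), 2746 with protein-coding genes only (51.9%), 691 without a filter (72.4%), 758 without trend and 118 to 470 with a library left out. The 324 called transcripts became 120, 525, 116 and 154 in these settings, 2009 at a mean TPM of at least 5 and 13 to 124 with a library left out. The 10 called pathway genes became 18 with protein-coding genes only, 3 without a filter and 2 to 3 with a library left out; with TPM as deposited 10 were called, 3 of them higher. Fewer libraries entered the fits that left one out.

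No paired analysis was possible because no label ties a control column to a wild type sample number. No member had more than 1 gene ID, so the sum over gene IDs of a symbol was not run. Single-library depth was unknown; DUSP4, with 158 implied estimated counts, has the largest counting error of the 10 genes.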
